A study of Mus musculus with 1012 samples.

Results

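Batch 8_8 is the only batch of the series in which cytoplasm drawn from living cells and whole sorted cells were both sequenced, so that a biopsy and a whole cell of the same kind can be set against each other within a batch. Its members were taken from the sample labels (technique, cell line, treatment and batch) and comprise 166 of the 1012 mouse libraries, 104 biopsies (Live-seq) and 62 whole cells (scRNA-seq). Mock RAW-G9 cells gave 63 biopsies and 16 whole cells, and RAW-G9 cells given lipopolysaccharide (LPS) gave 9 biopsies and 15 whole cells. IBA cells gave 14 biopsies and 15 whole cells, and untreated ASPCs gave 18 biopsies and 16 whole cells.

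RAW-G9 is a clone of the macrophage line RAW264.7 that carries mCherry under the Tnf promoter and an EGFP-Rela fusion protein, and both techniques and both treatments share this clone. LPS, a bacterial cell wall component, is listed at 40 ng per ul in the series text and at 100 ng per ml in the study's methods. Biopsies were taken 4 to 5 hours after it was given, and the time for whole cells is not given in the sources used here. IBA is a line from the stromal vascular fraction of brown fat of young male C57BL/6J mice, and ASPCs are primary adipose stem and progenitor cells from the subcutaneous fat of female C57BL/6J mice. IBA cells and ASPCs were not treated. How many cultures, mice or dishes stand behind each group is not stated, so that all cells of a technique and state were taken as 1 sample. No library repeated another (0 of 766 with identical counts), and the labels mark no library of this batch as one of a repeated extraction. The study's methods state that every experimental replicate of biopsies held single and sequential samplings, and whether any biopsies of this batch share a cell was not tested.

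A biopsy was taken with a hollow cantilever (FluidFM) from an attached cell at room temperature, and its RNA was released and amplified by enhanced Smart-seq2. Whole cells were detached with trypsin, kept on ice and sorted into plates. cDNA was amplified for 24 cycles from biopsies and for 18 from whole cells. Technique, handling and amplification therefore move together in every state and cannot be told apart. The comparison asks which kinds of transcript a cytoplasmic sample holds in a larger or smaller share than the cell it stands for.

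An animal cell sorts its messages. Most mRNAs are exported to the cytoplasm, where many small and abundant ones, such as those for ribosomal proteins, are translated on free polysomes, while mRNAs for secreted and membrane proteins are translated on the endoplasmic reticulum. Some long non-coding RNAs such as Malat1 and Neat1 stay in the nucleus, and transcripts of the mitochondrial genome stay within the organelle. Actin mRNA can be carried to the cell edge in fibroblasts. Immediate early genes, such as those of the AP-1 factors Fos and Jun, are transcribed within minutes of a stimulus.

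The summed counts outside the 20 negative-control genes ranged from 1487104 (LPS biopsies) to 18840937 (mock biopsies), and whole-cell sums from 4352635 to 5126766. The median biopsy held 3478, 1932, 3612 and 1712 genes in mock RAW-G9, LPS RAW-G9, IBA and ASPC, against 7385.5, 7256, 8505 and 8032 in the median whole cell. With every cell thinned to 50000 counts, the medians were 2776, 1443, 2757 and 1436.5 genes in biopsies against 5558, 5360, 6207 and 5902.5. The largest biopsy gave 4.72% of its sum in mock RAW-G9, 19.8% after LPS, 14% in IBA and 17.5% in ASPC. Smart-seq2 libraries carry no molecular identifiers, so that intervals on a share cover counting error only. They were narrow, at most 0.837% of the share either way for ribosomal proteins and 10.9% for the other transcript classes except the core small nuclear RNAs, and the spread between cells was far wider.

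The labelled cell types were checked against markers. The summed macrophage markers, among them Lyz2, Cd14 and Csf1r, took 1.05% and 1.09% of the counts of mock and LPS RAW-G9 biopsies and at most 0.00195% of any IBA or ASPC biopsy. Whole cells gave 0.765% and 0.945% in RAW-G9, and up to 0.0179% in an IBA and 0.0455% in an ASPC cell. The mesenchymal markers (Sparc, Col1a1, Col1a2 and others) took 0.312% in IBA and 0.892% in ASPC biopsies and at most 0.00329% of any RAW-G9 biopsy. Whole cells gave 0.474% in IBA and 1.18% in ASPC, and 13 of 14 IBA biopsies lay below the median whole cell. Marker shares in cells of the other lineage rest on few counts, down to 1 in the LPS biopsies. LPS response markers were also found in cells that had not been given LPS. They took 0.25% of the counts of mock biopsies against 0.0399% of mock whole cells, with medians over cells of 0.0514% and 0.0308% and highest cells of 2.97% and 0.13%. Ccl3, a chemokine gene of this list, was at 1351 CPM (counts scaled to a common library size) in mock biopsies against 100.2 in mock whole cells. Its median was lower in biopsies (26.2 against 81.9 CPM), 28 of 63 had no count and 1 held 36.8% of the counts. In 17 of 63 mock biopsies the share lay above every mock whole cell, and in 16 it reached the lowest LPS whole cell (0.161%). In ASPC these markers took 0.0889% of biopsy counts against 0.0198% of whole-cell counts, and 8 of 18 biopsies lay above the highest ASPC whole cell (0.0411%). They took 0.0697% and 0.0631% in IBA and 1.02% and 1.12% after LPS. Leaving out the 16 mock biopsies, an alternative chosen after seeing the data, gave mean log2 ratios over the 4 states of -0.45 for cytosolic and -0.25 for mitochondrial ribosomal proteins, -0.16 for the respiratory chain, -0.91 for snoRNA hosts and -0.27 for processed pseudogenes. It gave -1.12 for long intergenic RNAs, 0.39 for actin cytoskeleton, 0.18 for tubulins and vimentin, 0.28 for glycolysis, 0.99 for immediate early genes and 0.46 for the ATF4 list. Each of these classes is described below and kept its direction in mock cells, and the part of the ASPC biopsies with these markers was not tested.

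Class shares are percentages of all counts outside the negative-control genes in the sum of a technique and state. Per-gene log2 ratios of biopsies over whole cells are on counts scaled by TMM, whereas CPM values are not so scaled. With this scaling the median log2 fold change over all 10273 tested genes was -0.50, and it was -0.40 with DESeq2 size factors and -0.62 with total counts. The shift was found among low genes and differed between states. Among genes below 10 CPM the median log2 fold change was -1.54, between 10 and 30 CPM it was -1.08, and between 30 and 100 CPM it was -0.45. Below 10 CPM the state medians were -0.08 in mock RAW-G9, -2.96 after LPS, -0.62 in IBA and -2.25 in ASPC, and between 10 and 30 CPM they were 0.00, -2.25, -0.31 and -2.02. Genes of 100 to 300 CPM (-0.03), 300 to 1000 CPM (0.07) and over 1000 CPM (-0.01) had medians near 0. The share of counts held by genes below 10 CPM was lower in biopsies in all 4 states, with log2 ratios of -0.17, -1.32, -0.60 and -1.02. In the LPS biopsies, 63.3% of these genes had no count, against 9.0% in LPS whole cells. TMM raised the log2 ratios over those of unscaled CPM by 0.10 in mock RAW-G9, 0.13 after LPS, 0.21 in IBA and 0.02 in ASPC, so that genes within these distances above 0 are lower on unscaled CPM. Class shares do not use the scaling. Because 1 cell can carry a sum, values are also given without the biopsy that holds the most counts of a class or gene in a state, an alternative chosen after seeing the data and computed on unscaled counts. All whole cells were kept, so that this step tends to lower a ratio, and no common lower direction is read from it. Gene lists are read beside the 2309 genes with a mean of at least 100 CPM as well as beside all genes.

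**Figure D1:**
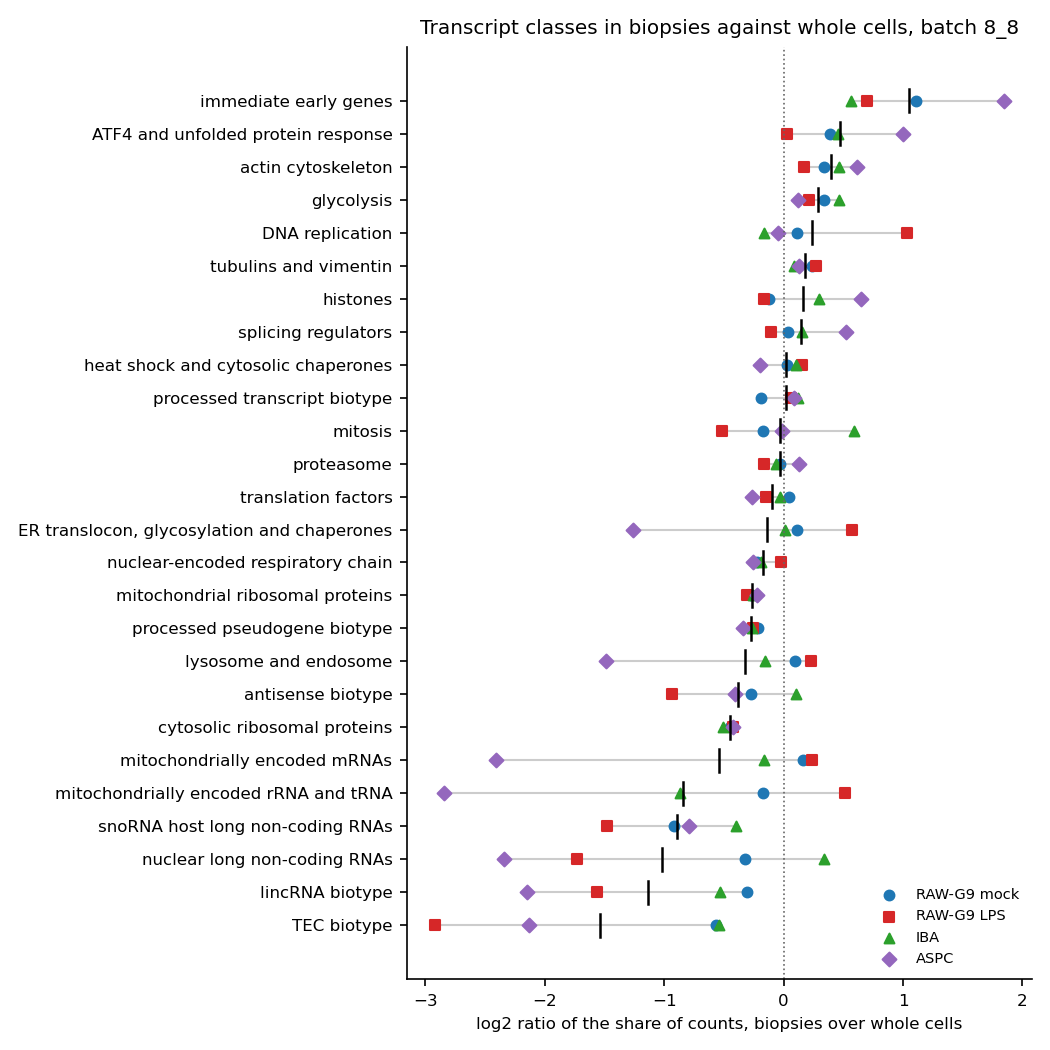
Log2 ratio of the share of counts in biopsies over that in whole cells (x axis) for each transcript class (y axis), with 1 symbol per state and a black bar at the mean over the 4 states. Cytosolic ribosomal proteins sit between -0.51 and -0.42 in every state, whereas mitochondrially encoded mRNAs range from -2.41 in ASPC to 0.24 in LPS RAW-G9.

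Cytosolic ribosomal proteins, the protein subunits of the translating ribosome, were lower in biopsies in all 4 states. Their mRNAs took 3.8%, 3.59%, 4.09% and 3.78% of the counts of mock RAW-G9, LPS RAW-G9, IBA and ASPC biopsies. Whole cells of the same states gave 5.17%, 4.82%, 5.83% and 5.06%. The log2 ratios of -0.45, -0.43, -0.51 and -0.42 average -0.45 ± 0.04 (SD, n = 4 states), a share 0.732 times that of whole cells. Every state was lower, and without the biopsy with the most of these counts the ratios were -0.44, -0.59, -0.56 and -0.44. With 4 pairs the exact paired permutation test, two-sided, cannot go below p = 0.13, the value this and every other class with a common direction in the 4 states reached.

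Single biopsies and whole cells overlapped. Ribosomal protein shares ran from 2.06% to 12.1% with a median of 4.06% in mock biopsies and from 3.88% to 6.54% with a median of 5.20% in mock whole cells. In 53 of 63 mock, 8 of 9 LPS, 12 of 14 IBA and 18 of 18 ASPC biopsies the share was below the median whole cell of that state. Only 3 mock biopsies and no biopsy of the other states lay above the highest whole cell.

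Of 78 ribosomal protein genes tested, 64 (82.1%) were lower in biopsies in all 4 states and 1 was higher in all 4. Among all genes tested, 13.9% were lower and 4.58% higher in all 4 states, and among those of at least 100 CPM the shares were 10.2% and 12.1%. At that level, 60 of 71 ribosomal protein genes were lower in all 4 states. With total counts as the scaling 66 of the 78 were lower in all 4 states, and with DESeq2 size factors 45. The median log2 fold change over the members was -0.45, against -0.50 over all genes, and at 100 CPM or more it was -0.44 against -0.02. Small-subunit genes (27 of 32 lower in all 4 states, median -0.48) and large-subunit genes (36 of 44, median -0.41) did not stand apart in direction.

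Rpl8, a large-subunit gene, was at 1381, 1151, 1862 and 1043 CPM in mock RAW-G9, LPS RAW-G9, IBA and ASPC biopsies and at 1880, 1773, 2689 and 1581 CPM in whole cells, a log2 fold change of -0.44 ± 0.15 (SE, edgeR unadjusted p = 0.0236). Every state was lower, by -0.34, -0.50, -0.33 and -0.58. Rpsa, which also encodes the laminin receptor, was at 1554, 1337, 2302 and 1532 CPM against 1992, 1830, 2467 and 2114, with ratios of -0.26, -0.33, 0.11 and -0.45. The IBA ratio was above 0 with TMM only, and at -0.10 on unscaled CPM. Rpl4 was the member higher in all 4 states, with 4250, 4518, 4209 and 3257 CPM in biopsies against 4386, 3862, 4339 and 3203, so that on unscaled CPM the mock and IBA samples were not higher, and without the LPS biopsy with the most Rpl4 counts the LPS ratio was -0.30. Its log2 fold change of 0.15 ± 0.13 had an unadjusted p of 0.273 in edgeR. Chosen after their values were seen, Rpl9 (-0.63), Rps9 (-0.64), Rpl12 (-0.56) and Rpl22 (-0.88) had the smallest unadjusted p-values of the list in edgeR, 0.0101, 0.0144, 0.0142 and 0.0158. Many ribosomal protein genes have near-identical pseudogenes, and how reads between such copies were shared depends on the authors' use of uniquely mapped reads, which was the same in both techniques.

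Mitochondrial ribosomal proteins, encoded in the nucleus and imported to build the organelle's own ribosome, were lower by a smaller and similarly even amount. Biopsies held 0.764%, 0.579%, 0.646% and 0.472% of counts in the 4 states against 0.922%, 0.717%, 0.774% and 0.551% in whole cells, and the log2 ratios average -0.27 ± 0.03 (SD, n = 4 states). Of 77 members, 19 were lower in all 4 states and 0 higher (13 and 2 with DESeq2 size factors), beside 13.9% and 4.58% of all genes. The median log2 fold change was -0.35, and at least 100 CPM it was -0.28 over 25 members. Mrpl20 was lower in all 4 states (-0.14, -0.09, -0.41 and -0.54). Mrps15 (0.08 in IBA, -1.83 after LPS) and Mrpl15 (-0.49 in mock, 1.38 in ASPC) were not alike across states. In ASPC 13 of 18 biopsies had no Mrpl15 count, and the ratio was 0.77 without the top biopsy.

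Nuclear-encoded subunits of the respiratory chain and ATP synthase were lower in the 4 states by log2 ratios of -0.22, -0.03, -0.19 and -0.25, a mean of -0.17 ± 0.10 (SD, n = 4 states). The LPS samples differed least (1.54% in biopsies, 1.57% in whole cells). Of 74 members, 22 were lower and 1 was higher in all 4 states, beside 13.9% and 4.58% of all genes. With DESeq2 size factors 8 were lower and 3 higher, so that the members' count depended on the scaling. The 3 most expressed members did not share this direction. Atp5b, the catalytic beta subunit of ATP synthase, had log2 ratios of 0.12, -0.04, 0.48 and -0.01, and Atp5a1, its alpha subunit, had 0.42, 0.51, 0.08 and -1.54. Atp5c1, the gamma subunit, had -0.20, 0.13, 0.75 and -0.30.

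Hosts of small nucleolar RNAs, long non-coding transcripts whose introns hold guide RNAs for ribosomal RNA modification, took 0.0304%, 0.0225%, 0.0852% and 0.0269% of biopsy counts against 0.0573%, 0.0627%, 0.112% and 0.0467% of whole-cell counts. All 4 log2 ratios were negative (-0.92, -1.48, -0.40 and -0.80), with a mean of -0.90 ± 0.45 (SD, n = 4 states). Without Gas5 they were -0.54, -1.86, -0.05 and -0.97 (mean -0.86), so that IBA was close to level and LPS was the lowest. Of 12 members tested, 3 (25%) were lower and 0 higher in all 4 states, beside 13.9% and 4.58% of all genes. Gas5, the most expressed host, lies on mm10 chr1:161034422-161038539 and its spliced transcript is a known target of nonsense-mediated decay. Its level was 122.9, 145.2, 282.3 and 127.8 CPM in biopsies and 309.7, 337, 531.7 and 189.9 CPM in whole cells. Every biopsy sum was below its whole-cell sum, and 57 of 63, 8 of 9, 12 of 14 and 13 of 18 biopsies lay below the median whole cell, for a log2 fold change of -0.89 ± 0.27 (SE, edgeR unadjusted p = 0.0155). Snhg1 (-0.07, -2.89, 0.04 and -1.72) and Zfas1 (-0.59, -3.73, 0.29 and -0.45) were lower in 3 of 4 states, with 8.07 and 2.69 CPM in the LPS biopsies.

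Processed pseudogenes, intronless copies of mRNAs, gave log2 ratios of -0.22, -0.25, -0.27 and -0.34 (mean -0.27 ± 0.05, SD, n = 4 states). Among 31 tested pseudogenes named after ribosomal protein genes 18 were lower in all 4 states and 0 higher, and among the other 190 there were 43 lower and 15 higher, beside 13.9% and 4.58% of all genes. Over both groups 61 were lower in all 4 states, against 77 with total counts and 42 with DESeq2 size factors. Reads of a parent gene can fall on such copies, so these values are not independent of the ribosomal protein genes.

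Long intergenic non-coding RNAs and transcripts still awaiting experimental support (the TEC biotype) were lower in all 4 states by wider and uneven amounts. For the former the ratios were -0.31, -1.56, -0.54 and -2.15 (mean -1.14 ± 0.87, SD, n = 4 states), and without Gm26917, which held most of these counts, they were -0.26, -0.91, 0.08 and -1.24. IBA was then no longer lower. For TEC genes they were -0.57, -2.92, -0.54 and -2.13 (mean -1.54 ± 1.18, SD, n = 4 states). Without the biopsy with the most of these counts in each state the ratios were -0.50, -2.99, -2.14 and -2.27 for long intergenic RNAs and -0.73, -3.29, -1.33 and -2.84 for TEC genes, so that 1 biopsy each moved the LPS and IBA sums of the former and the IBA and ASPC sums of the latter by more than 1.5-fold. The median over cells gave -2.96 and -3.5 for these classes. Of 64 long intergenic genes tested 7 (10.9%) were lower and 1 was higher in all 4 states. Of 48 TEC genes 9 (18.8%) were lower and 0 higher, beside 13.9% and 4.58% of all genes.

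The sums hide how uneven such RNAs are between biopsies. The nuclear long non-coding RNAs had log2 ratios of -0.32, -1.73, 0.33 and -2.34. In IBA 1 biopsy held 65.2% of their biopsy counts, and 1 whole cell held 45.8% of their whole-cell counts. Leaving out only the biopsy with the most of these counts in each state gave ratios of -0.57, -2.14, -0.99 and -2.5. Leaving out that whole cell as well was not tested. In mock RAW-G9 this list took 0.138% of biopsy counts and 0.172% of whole-cell counts, yet the median biopsy held 0.00211% and the median whole cell 0.177%. In 50 of 63 mock biopsies the share was below the median whole cell and in 35 below the lowest, while 8 lay above the highest, up to 2.53%. For IBA the medians were 0.000798% and 0.121%, with 8 of 14 biopsies below the lowest whole cell and 1 above the highest. The medians lay closer in ASPC, at 0.0230% against 0.0259%.

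Malat1, a nuclear speckle RNA on mm10 chr19:5795690-5802672, was at 1003, 388.7, 2937 and 23.4 CPM in the biopsies of mock RAW-G9, LPS RAW-G9, IBA and ASPC, and at 1343, 824.6, 2236 and 2078 CPM in whole cells. It had no count in 27 of 63, 4 of 9, 8 of 14 and 15 of 18 biopsies, and in 0 of 16, 1 of 15, 1 of 15 and 3 of 16 whole cells. A single biopsy held 67.1% of the Malat1 counts of the IBA biopsies and another 94.9% of those of ASPC. The log2 ratios were -0.32, -0.96, 0.60 and -6.44, without a common direction over the 4 sums (edgeR unadjusted p = 0.336). Without the biopsy with the most counts in each state, and with all whole cells kept, the ratios were -0.66, -1.44, -1.01 and -10.7. In IBA 1 whole cell held 46.3% of the whole-cell Malat1 counts, and leaving it out as well was not tested. Neat1, the scaffold of nuclear paraspeckles, had counts in 12 of 63 mock and 3 of 14 IBA biopsies and in none of the 9 LPS and 18 ASPC biopsies, against 133.7 and 519.4 CPM in LPS and ASPC whole cells. With 0 counts in those sums, a fitted fold change depends on the prior count and is not given. In mock RAW-G9 the unscaled Neat1 ratio was 0.36, and 0.07 without the top biopsy. There 52 of 63 biopsies lay below the median whole cell and 5 above the highest. In IBA the ratio was -0.54, and -2.30 without the biopsy that held 74.3% of the counts. Kcnq1ot1, which is antisense to Kcnq1 and was counted without strand, was at 196.4, 0, 92.5 and 31.8 CPM in biopsies and 190.1, 448.5, 25 and 49.1 CPM in whole cells. In mock RAW-G9, IBA and ASPC 1 biopsy each held 36.7%, 72.3% and 97% of the Kcnq1ot1 counts. Leaving it out moved the unscaled ratios from 0.05 to -0.58, from 1.89 to 0.24 and from -0.63 to -5.62. Gm26917, chosen after its values were seen, had a median of 308.7 CPM over mock biopsies and 17710 CPM over mock whole cells, with 4 biopsies holding at least 50% of its counts.

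Across the 63 mock biopsies, shares of the nuclear list and of long intergenic RNAs ranked together, with a Spearman rho of 0.77, and rho was 0.57 with the TEC genes. In the 9 LPS, 14 IBA and 18 ASPC biopsies rho was 0.57, 0.59 and 0.36 with long intergenic RNAs and 0.03, 0.62 and -0.10 with TEC genes. Whole cells gave 0.45, 0.65, 0.80 and 0.83 with long intergenic RNAs and 0.34, 0.64, 0.73 and 0.91 with TEC genes in the 4 states. The shares of a cell have 1 library and 1 total in common, and so no p is given. The classes were not made free of overlap, so that a gene of the nuclear list with the long intergenic biotype counts in both shares. A positive rho between these classes is therefore partly built in.

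**Figure D2:**
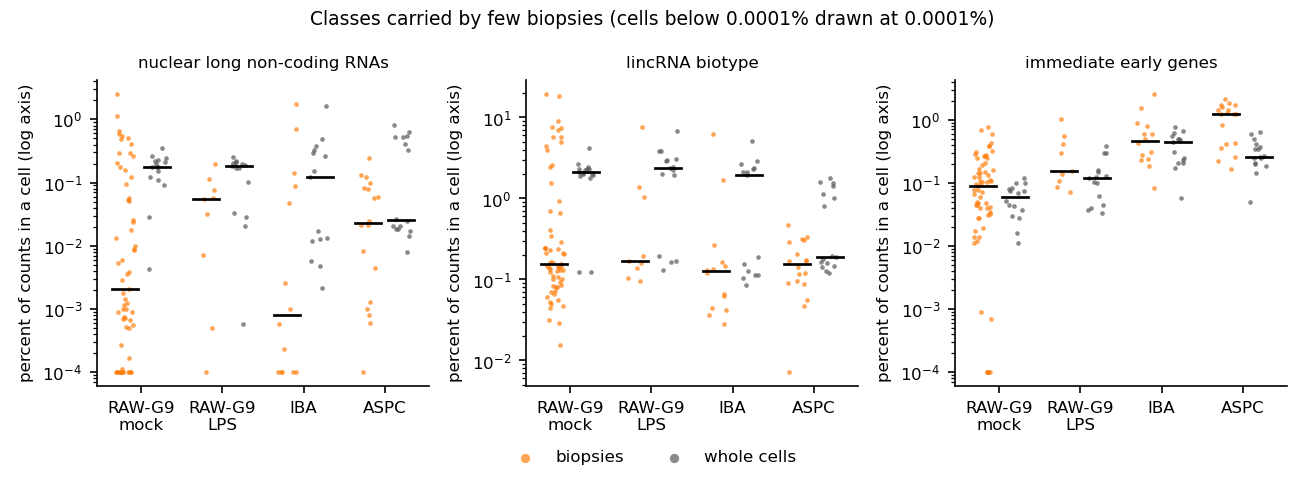
Percent of counts in each cell (y axis, log scale; cells under 0.0001% are drawn at 0.0001%) for nuclear long non-coding RNAs, the long intergenic biotype and immediate early genes, with biopsies in orange, whole cells in grey and black bars at the medians. Most mock and IBA biopsies lie below the median whole cell for the first 2 classes while a few pass every whole cell.

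The actin cytoskeleton genes, which encode actins, their binding proteins and the motors and capping proteins of filaments, were higher in the biopsy sums of all 4 states. Their share was 2.24%, 2.62%, 3.86% and 7.51% of biopsy counts against 1.78%, 2.33%, 2.8% and 4.91% of whole-cell counts, with log2 ratios of 0.34, 0.17, 0.47 and 0.61 (mean 0.40 ± 0.19, SD, n = 4 states). In 43 of 63 mock, 2 of 9 LPS, 7 of 14 IBA and 13 of 18 ASPC biopsies the share was above the highest whole cell. The LPS biopsies were the exception over cells, since their median of 2.20% lay below the 2.32% of LPS whole cells. Without the biopsy with the most of these counts in each state the ratios were 0.29, -0.04, 0.40 and 0.64. Of 34 members, 12 (35.3%) were higher in all 4 states and 3 were lower, against 4.58% and 13.9% of all genes. At 100 CPM or more 11 of 31 members were higher and 3 lower, against 12.1% and 10.2% of genes of that level. With DESeq2 size factors 16 were higher in all 4 states, and with total counts 9.

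Actb, cytoplasmic beta-actin (mm10 chr5:142903115-142906754), was at 9623, 11770, 18120 and 30300 CPM in biopsies and at 5439, 8409, 8730 and 18220 CPM in whole cells. All 4 biopsy sums were above their whole-cell sums, and 48 of 63, 4 of 9, 9 of 14 and 11 of 18 biopsies lay above the highest whole cell. The log2 fold change was 0.89 ± 0.13 (SE, edgeR unadjusted p = 0.000536). The list leaned on this gene. Without Actb the ratios were 0.06, -0.04, 0.10 and 0.56, so that the LPS state was no longer higher and the mean was 0.17.

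The other members did not share a direction. Gamma-actin Actg1 (0.97), the actin-bundling Tagln2 (0.99), the Arp2/3 subunits Arpc4 (0.85) and Actr3 (0.64), and the tropomyosin Tpm4 (0.61) had positive log2 fold changes at edgeR unadjusted p-values of 0.00519, 0.00282, 0.00726, 0.0257 and 0.0167. After LPS, 1 biopsy held 81.8% of the Tagln2 counts and 1 held 65.5% of the Tpm4 counts, and without them the LPS ratios were -1.24 and -1.12. Pfn1, profilin, was at 1466, 1237, 1005 and 2149 CPM in biopsies and 1799, 2036, 1714 and 2308 CPM in whole cells and was lower in all 4 states (-0.19, -0.59, -0.57 and -0.09), and Cfl1, cofilin, had ratios of 0.09, -0.13, -0.14 and -0.60. Flna, the crosslinker filamin A, was lower in all 4 states (-0.79, -2.54, -0.76 and -0.27; edgeR unadjusted p = 0.0380). Apart from Actb, Pfn1 and Cfl1 these genes were chosen after their values were seen.

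**Figure D3:**
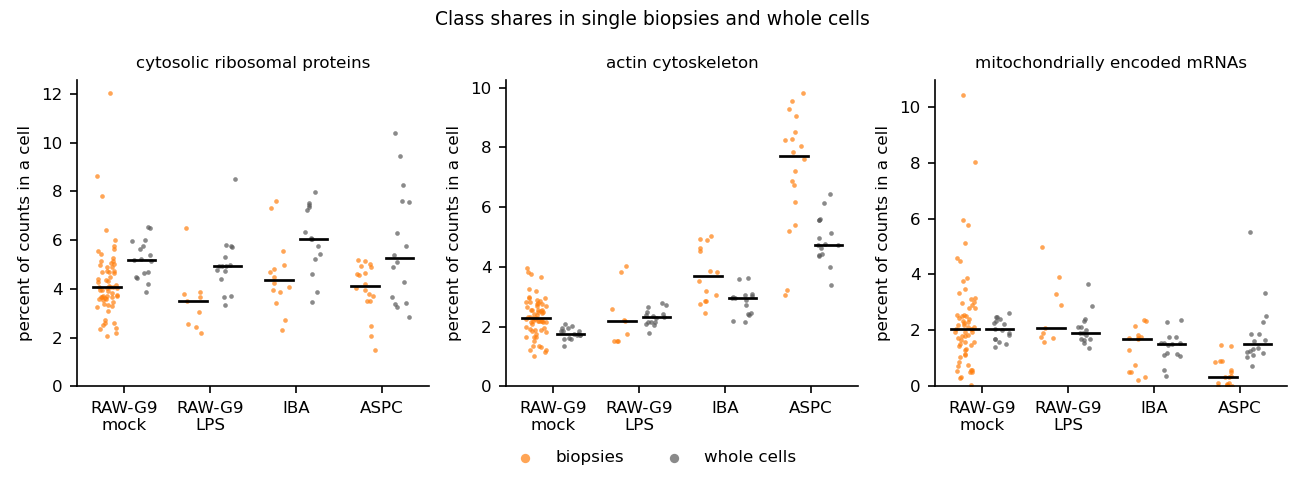
Percent of counts in each cell (y axis, linear from 0) for cytosolic ribosomal proteins, actin cytoskeleton and mitochondrially encoded mRNAs in biopsies (orange) and whole cells (grey), with medians as black bars. The ribosomal protein medians of biopsies lie below those of whole cells in all 4 states, and the mitochondrial median drops to 0.318% only in ASPC biopsies.

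The summed share of tubulins and vimentin was higher in all 4 states by a small amount, with ratios of 0.24, 0.27, 0.09 and 0.13 (mean 0.18 ± 0.09, SD, n = 4 states). This did not hold over cells, since the median ASPC biopsy held 1.29% against 1.46% in the median whole cell and the IBA medians were both 1.18%. Without the biopsy with the most of these counts the LPS ratio was -0.04. Tubb6, a beta-tubulin, carried much of it, with 662.8, 976.4, 802.4 and 1720 CPM in biopsies against 412.1, 345.1, 415.5 and 851.4 CPM. Every state was higher, at a log2 fold change of 1.15 ± 0.21 (SE, edgeR unadjusted p = 0.00148). Vim, an intermediate filament gene, had ratios of 0.97, -1.07, 0.30 and 0.07, and Tubb5 had 0.12, -0.02, 0.13 and -0.14. After LPS 1 biopsy held 79.8% of the Vim counts and 1 held 50.1% of the Tubb5 counts, with ratios of -3.47 and -0.86 without them.

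Enzymes of glycolysis were higher in all 4 states (0.34, 0.21, 0.46 and 0.12; mean 0.28 ± 0.15, SD, n = 4 states), though only 2 of 14 members were higher in all 4 (5 with DESeq2 size factors). At 100 CPM or more 2 of 13 were, near the 12.1% of genes of that level. In ASPC the median biopsy held 0.950% and the median whole cell 0.994%, 10 of 18 biopsies lay below that median, and without the biopsy with the most of these counts the ratio was -0.01. Pkm, the pyruvate kinase of the last step (mm10 chr9:59656368-59679375), was at 2560, 2604, 3580 and 3306 CPM in biopsies and 1534, 1532, 2438 and 1745 CPM in whole cells. Its state ratios of 0.84, 0.89, 0.76 and 0.94 lay close together, with a log2 fold change of 0.86 ± 0.13 (SE, edgeR unadjusted p = 0.000583). Ldha, lactate dehydrogenase, was higher in 3 states (0.71, 0.55 and 1.09) and at -0.06 in ASPC. Gapdh, often used as a reference gene, had ratios of 0.22, 0.05, 0.46 and -0.27.

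Immediate early genes had the largest mean of the lists that were higher in all 4 states. Their share was 0.130%, 0.234%, 0.608% and 1.23% of biopsy counts against 0.0602%, 0.144%, 0.412% and 0.343% of whole-cell counts, with log2 ratios of 1.11, 0.70, 0.56 and 1.84 (mean 1.05 ± 0.58, SD, n = 4 states). The IBA value was 0.03 without Ccn1, and 0.20 without the IBA biopsy that held 32.3% of the counts. Cells overlapped. In ASPC 12 of 18 biopsies lay above every whole cell, in mock RAW-G9 24 of 63, in IBA 4 of 14 and after LPS 3 of 9, and in IBA the medians were 0.461% and 0.440%. Of 24 members, 2 (8.33%) were higher and 0 lower in all 4 states, a share between the 4.58% of all genes and the 12.1% of genes of at least 100 CPM. Jun and Fosl1 were the 2 members higher in all 4 states, with log2 fold changes of 1.74 and 1.91 (edgeR unadjusted p = 0.00982 and 0.0139), and both were chosen after their values were seen. After LPS, 1 biopsy held 52.6% of the Jun counts and 1 held 97.6% of the Fosl1 counts, and without them the LPS ratios were -0.12 and -2.86.

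Of the 3 most expressed members, Junb was at 359.9, 730.3, 170.4 and 1798 CPM in biopsies against 196.9, 538.8, 462.1 and 139.2 CPM, so that IBA went the other way (-1.23). Klf6 had ratios of 0.78, -3.61, 1.52 and 2.37. Ccn1, a matricellular gene almost absent from RAW-G9, was at 3143 and 523.5 CPM in IBA and ASPC biopsies against 1232 and 1121 CPM, higher in one and lower in the other. Counts sat in few biopsies. Fos, chosen after its values were seen, was found in 24 of 63 mock biopsies, with 42.2% of its counts in 1 of them, and in 0 of 9 LPS and 0 of 14 IBA biopsies.

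Genes of the ATF4 and unfolded protein response were higher in all 4 states by 0.39, 0.03, 0.46 and 1.0 (mean 0.47 ± 0.40, SD, n = 4 states), with 4 of 15 members higher in all 4 states (2 with total counts) and 0 lower, beside 4.58% of all genes and 12.1% of those of at least 100 CPM. At that level 3 of 9 members were higher. Phgdh, the first enzyme of serine synthesis, was at 407.9, 536.6, 790.5 and 519.5 CPM against 272.8, 400.9, 542.3 and 148.8 CPM, higher in every state with a log2 fold change of 0.94 ± 0.29 (SE, edgeR unadjusted p = 0.0163), although 32 of 63 mock and 8 of 18 ASPC biopsies lay below the median whole cell. Psat1, of the same pathway, was lower after LPS (-1.26) and higher elsewhere (0.46, 0.55 and 0.72), and Shmt2 was lower in ASPC (-1.75) and higher in the other sums (0.37, 0.71 and 1.14). After LPS 1 biopsy held 53.7% of the Shmt2 counts and 1 held 77.4% of the Psat1 counts, with ratios of -0.42 and -3.34 without them. In ASPC 1 biopsy held 58.9% of the Shmt2 counts, and the ratio was -2.88 without it. Xbp1, a transcription factor of the unfolded protein response chosen after its values were seen, had 0.21, -1.59, -0.25 and -0.81. In IBA 1 biopsy held 94% of the Xbp1 counts, and the ratio was -4.32 without it. The mock ratio was -0.03 without the top biopsy.

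Other classes did not keep a direction. Mitochondrially encoded mRNAs took 2.28%, 2.39%, 1.28% and 0.311% of biopsy counts and 2.03%, 2.02%, 1.44% and 1.66% of whole-cell counts. Their ratios of 0.16, 0.24, -0.16 and -2.41 single out ASPC, where 18 of 18 biopsies were below the median whole cell and 13 below the lowest. Over mock biopsies the share ran from 0.0309% to 10.4%, and over mock whole cells from 1.40% to 2.61%, so that the means were close and the spread was not.

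mt-Nd1, a subunit of complex I, was at 6055, 6421, 3180 and 439.7 CPM against 5184, 5171, 4610 and 4566 CPM. mt-Co1, of cytochrome oxidase, was at 6288, 7044, 3552 and 1074 CPM against 5126, 5226, 2488 and 3907 CPM. mt-Cytb, of complex III, had ratios of 0.61, 0.18, 0.09 and -2.14, so that all 3 were lower by more than 1.8 on the log2 scale in ASPC alone. mt-Nd4 (-0.15, 0.06, -0.26 and -2.28) and mt-Nd5 (-0.21, 0.42, 0.07 and -2.36) had the same shape. mt-Nd2 and mt-Nd6 were lower in all 4 states, at -0.12, -0.25, -0.29 and -2.69 for mt-Nd2 and -0.51, -0.03, -0.72 and -3.52 for mt-Nd6. mt-Co2 and mt-Atp6 had no counts in any sum, mt-Nd3 had too few counts for the test, and the other mitochondrial mRNAs were not analysed here. Mitochondrial ribosomal and transfer RNAs had ratios of -0.18, 0.52, -0.87 and -2.84. After LPS 1 biopsy held 40.2% of these counts, and without the biopsy with the most of them in each state the ratios were -0.26, -0.12, -1.08 and -3.36, so that the higher LPS value rested on 1 biopsy. mt-Rnr1, the small ribosomal RNA, was at 1619, 2317, 671.1 and 264 CPM against 1826, 1618, 1233 and 1880 CPM. Among mitochondrial tRNAs, mt-Tp and mt-Tc were under 15 CPM in all 8 sums.

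Genes of the endoplasmic reticulum (translocon, glycosylation and chaperones) and of lysosomes and endosomes followed ASPC as well. Their ratios were 0.11, 0.57, 0.01 and -1.26 for the former and 0.10, 0.23, -0.15 and -1.49 for the latter. Hspa5, the chaperone BiP, was at 2603, 5277, 932.3 and 207.6 CPM in biopsies against 2114, 2311, 1145 and 1542 CPM, more than 2-fold higher after LPS (1.32) and more than 2-fold lower in ASPC (-2.87). Calr, calreticulin, was lower in all 4 states (-0.01, -0.14, -0.11 and -1.89), and Pdia3 was not (0.40, 1.10, 0.02 and -0.87). In ASPC 1 biopsy held 63.55% of the Pdia3 counts, and the ratio was -2.06 without it. The IBA ratio of Pdia3 was -0.63 without the top biopsy. Ctsb, cathepsin B, had ratios of 0.49, 0.39, -0.88 and -3.66 and had no count in 13 of 18 ASPC biopsies. Lamp1, of the lysosomal membrane, had 0.44, 1.18, 0.38 and -2.27. Ctsz, another cathepsin, had TMM-scaled ratios within 0.26 of 0 in every state, but in ASPC 1 biopsy held 55.8% of its counts, 13 of 18 had none and the ratio without that biopsy was -1.20.

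Splicing regulators (0.03, -0.11, 0.15 and 0.52) were higher in 3 states. Of 31 members, 7 were higher and 2 lower in all 4 states (7 and 6 with total counts), and at 100 CPM or more 6 of 21 were higher, beside 12.1% of genes of that level. Among them Ddx5, an RNA helicase, was at 1267, 1085, 1404 and 1133 CPM against 841.4, 996.2, 715.9 and 491.6 CPM, a log2 fold change of 0.84 ± 0.23 (SE, edgeR unadjusted p = 0.0100), and Srsf3 had 0.18, 0.24, 0.49 and 1.10. Without the LPS biopsy with the most counts of the gene, both were at -0.20 after LPS. In ASPC 11 of 18 biopsies lay below the median whole cell for Ddx5. Srsf6 was lower after LPS (-0.45). Translation factors were within 0.27 of whole cells in every state (0.04, -0.15, -0.03 and -0.27), with Eef1a1 at 0.18, -0.07, 0.17 and -0.33, Eef2 at 0.42, 0.09, 0.50 and -0.06 and Pabpc1 at 0.22, 0.64, 0.33 and -0.32. They thus did not share the evenly lower share of the ribosomal proteins.

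Proteasome subunits (-0.03, -0.16, -0.07 and 0.13) and cytosolic chaperones (0.03, 0.15, 0.10 and -0.20) differed little. Within them Psmd2, of the proteasome cap, was higher in the sums of all 4 states (0.87, 0.64, 0.87 and 0.30; edgeR unadjusted p = 0.0183). In ASPC 1 biopsy held 78.6% of its counts, the ratio without that biopsy was -1.77, and 16 of 18 biopsies lay below the median whole cell. Psma6 (0.25) and Psmd7 (0.13), and the chaperones Hsp90ab1 (-0.00), Hspa8 (-0.02) and Cct8 (0.56), had unadjusted p-values between 0.0860 and 0.991 in edgeR.

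Mitotic genes (-0.18, -0.51, 0.59 and -0.01), replication genes (0.11, 1.04, -0.17 and -0.05) and histones (-0.13, -0.16, 0.30 and 0.65) had no common direction. In ASPC 1 biopsy held 46.4% of the mitotic and 1 held 48.6% of the replication counts, with ratios of -0.63 and -0.73 without them. Mki67, a long mRNA and marker of cycling cells, was lower in all 4 states (-0.88, -1.80, -0.06 and -2.53; edgeR unadjusted p = 0.0267), whereas Top2a was higher in IBA (0.98) and Hmgb2 was at -0.07 in mock RAW-G9 and above 0 in the other sums. For Mki67 1 biopsy held 53.9% of the IBA counts and 1 held 45.6% of the ASPC counts, with unscaled ratios of -1.16 and -3.29 without them. Without the LPS biopsy that held 45.3% of the Hmgb2 counts the LPS ratio of Hmgb2 was -0.54. Rrm2, of ribonucleotide reductase, was higher in the sums of all 4 states (0.53, 1.44, 1.07 and 0.70; edgeR unadjusted p = 0.00512), and Rrm1 and Mcm6 were not. In ASPC 1 biopsy held 55.6% of the Rrm2 counts and the ratio without it was -0.21, and 33 of 63 mock biopsies lay below the median mock whole cell. H3f3b, a replication-independent and polyadenylated histone gene, was higher in all 4 states, with 1282, 1130, 1888 and 1215 CPM against 1074, 874.9, 923.6 and 606.9 CPM. H2afz (-0.22, -0.32, 0.10 and -0.56) and H2afx (-0.41, -3.21, 0.52 and 0.19) differed from it, and without the top biopsy H2afx was at -0.14 in IBA and -0.41 in ASPC. Of the core small nuclear and nucleolar RNAs, which are not polyadenylated, Snord100 alone had enough counts to be tested, at no more than 5.30 CPM. The summed share of that list was lower in all 4 states (-0.80, -0.80, -0.30 and -2.06) but under 0.005% in every sum, and its counting interval reached 72% of the share.

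Antisense transcripts had ratios of -0.28, -0.93, 0.10 and -0.41, and -0.46, -1.08, -0.17 and -0.60 without the biopsy with the most of these counts in each state. The IBA exception thus rested on 1 biopsy. The processed transcript biotype had -0.19, 0.06, 0.12 and 0.08, and without Cct6a, its most expressed gene, -0.35, -0.86, -0.46 and -0.07, lower in all 4 states. Protein-coding genes took 97.16%, 97.92%, 97.84% and 99.24% of biopsy counts against 96.56%, 95.97%, 97.18% and 98.31% of whole-cell counts, higher in all 4 states by at most 0.03 on the log2 scale.

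Transcript length, which was not used to form the classes, varied with the ratio. Genes were cut into quintiles by the length of their annotated transcript. In the longest quintile (median 6472 bases) the median log2 fold change was -0.81, and in the shortest (1142 bases) it was -0.40. Among genes of at least 100 CPM this order was kept after LPS alone, with state medians of -0.01, -0.20, -0.04 and -0.19 in the longest quintile and -0.13, -0.05, -0.16 and -0.32 in the shortest. By share of counts, the longest quintile was lower in all 4 states (-0.17, -0.27, -0.14 and -0.17), the next to shortest was higher in all 4 (0.12, 0.18, 0.21 and 0.20), and the shortest was lower in all 4 (-0.09, -0.06, -0.26 and -0.26). Ribosomal protein genes are short. Without them the ratios of the shortest quintile were -0.03, -0.01, -0.20 and -0.23. Coding length gave the same for its longest quintile (-0.21, -0.27, -0.12 and -0.24). Flna, Mki67 and Notch2 are long mRNAs of this kind.

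Messages read on the endoplasmic reticulum were approached through the protein. Genes whose protein has a strongly hydrophobic stretch of 19 residues within its first 40 (672 genes, a proxy for a signal peptide or anchor) took 6.78%, 8.84%, 4.95% and 4.04% of biopsy counts and 6.18%, 6.75%, 5.15% and 6.09% of whole-cell counts. The ratios of 0.13, 0.39, -0.06 and -0.59 had no common direction. In ASPC the median ratio of such genes at 100 CPM or more was -1.0 against -0.10 for the others, and after LPS it was 0.38 against 0.00.

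**Figure D4:**
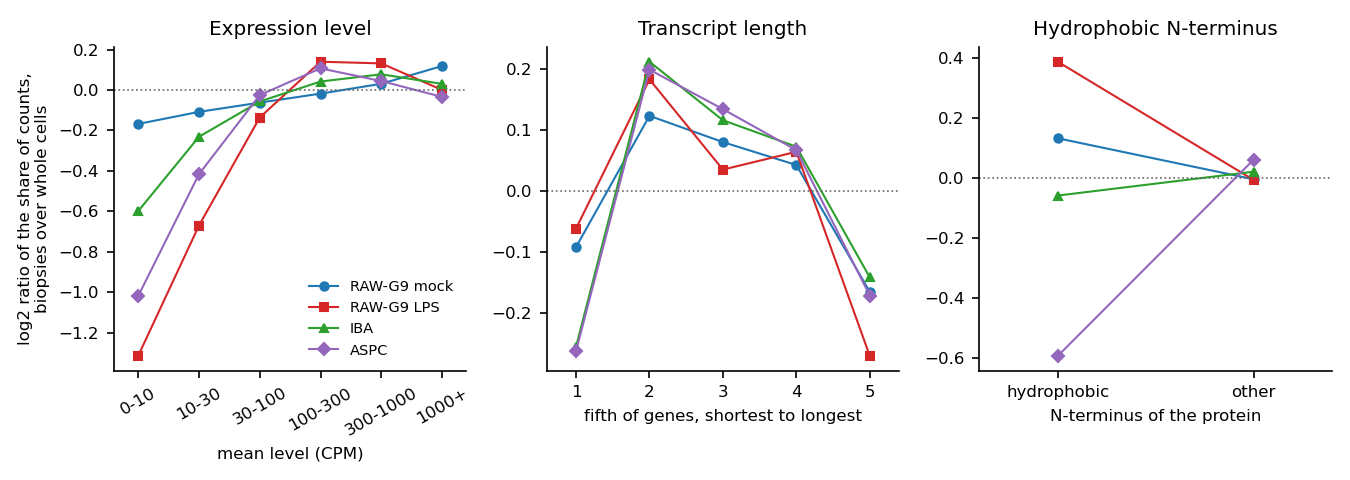
Log2 ratio of the share of counts, biopsies over whole cells (y axis, 1 line per state), for genes grouped by mean level in CPM, by quintile of transcript length and by presence of a hydrophobic N-terminus (x axes). Genes under 30 CPM and the longest quintile lie below 0 in all 4 states, and the hydrophobic group runs from -0.59 in ASPC to 0.39 in LPS RAW-G9.

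No gene was called across the 4 states. edgeR's quasi-likelihood test with state as a block and Benjamini-Hochberg adjustment called 0 of 10273 genes (0%) at an FDR of 0.05 and an absolute log2 fold change above 1, with 363 genes at an unadjusted p below 0.05, of which 208 (2.02%) were lower and 155 (1.51%) higher in biopsies. DESeq2 called 5 genes and the newer edgeR 4 fit called 1. Among ribosomal protein genes 25 were lower and 0 higher at that unadjusted level, and among actin cytoskeleton genes 8 were higher and 1 lower. The common dispersion of the sums was 0.831. In simulated counts at that dispersion, the test recovered 0 of 200 genes changed 4-fold and 29 of 200 (14.5%) changed 16-fold. The count of 0 calls therefore cannot show that genes did not differ. All cells of a technique and state make 1 sum. A p-value here sets the mean difference between biopsies and whole cells against the spread of that difference over the 4 states of 1 batch. It does not measure a spread between cultures or cells.

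The genes set apart by the other tests were chosen after their values were seen. Acta2, smooth muscle actin (mm10 chr19:34241090-34255590), was at 1.86, 6.72, 2329 and 24960 CPM in biopsies and 0.655, 0.230, 461.5 and 6487 CPM in whole cells, a log2 fold change of 2.47 ± 0.42 (SE). It was called by DESeq2 (2.63, adjusted p = 0.0325) and by the edgeR 4 fit (2.27, adjusted p = 0.0143). In ASPC 11 of 18 biopsies lay above the highest whole cell, in IBA 9 of 14 lay below the median whole cell and 1 biopsy held 60.4% of the counts, and in RAW-G9 the gene was close to absent from both techniques. Plk2, a stress-induced kinase (mm10 chr13:110395046-110400844), was at 66.1, 93.5, 326.9 and 610.7 CPM against 7.20, 20.9, 132.6 and 155.7 CPM. It was higher in every state (DESeq2 log2 fold change 2.37, adjusted p = 0.00667), but it had counts in 5 of 63 mock and 1 of 9 LPS biopsies only.

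Nr4a1, an orphan nuclear receptor and early response gene, was at 116.6, 125.1, 5.74 and 1435 CPM in biopsies and 0.218, 0, 7.02 and 22.2 CPM in whole cells (DESeq2 log2 fold change 7.17, adjusted p = 0.000164), higher in 3 states and close to level in IBA (-0.08). After LPS 1 biopsy held 98.9% of the Nr4a1 counts, in IBA 1 biopsy held all of them, and 49 of 63 mock biopsies had none. Arid5a (DESeq2 5.80, adjusted p = 0.0454) had 0 counts in both whole-cell sums of RAW-G9. Wdr13 was the call in the other direction (DESeq2 log2 fold change -6.21, adjusted p = 0.00824), with 0.478, 0, 0.662 and 0 CPM in biopsies and 8.29, 22.3, 35.9 and 44.9 CPM in whole cells. Fitted values of these 2 genes and of Nr4a1 depend on the prior count where a sum is 0.

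Only 10 genes (0.0973%) were at least 2-fold higher in all 4 states, and 164 (1.6%) at least 2-fold lower. Genes of this paragraph were chosen after their values were seen. The former were Ccm2, Acot8, Usp15, Klf11, Plk2, Mtmr2, Acta2, Ddx1, Arid5a and Mtfmt. Several rested on 1 biopsy in a state. One LPS biopsy held 99.0% of the Ccm2 counts (-3.06 without it), 1 held 81.0% of those of Mtfmt (-0.99 without it) and 1 held all of those of Acot8. In ASPC 1 biopsy held 98.4% of the Mtfmt counts (-4.31 without it) and 1 held all Klf11 counts. In IBA 1 biopsy held 73.7% of the Arid5a counts (-0.58 without it). Ddx1, an RNA helicase, was at 644.9, 779.4, 404 and 449.2 CPM against 327.4, 397.9, 174.8 and 194.4 CPM (log2 fold change 1.2 ± 0.21 (SE), edgeR unadjusted p = 0.00110). Without the biopsy with the most Ddx1 counts its unscaled ratios were 0.90, 0.33, 0.57 and 0.81, and 11 of 18 ASPC biopsies lay below the median whole cell. Usp15 (1.37 ± 0.32) and Mtmr2 (1.91 ± 0.38) had edgeR unadjusted p-values of 0.00483 and 0.00212. For Usp15, 1 biopsy held 89.1% of the LPS counts and 1 held 89.5% of the ASPC counts, and without them the ratios were -1.34 and -1.72. Mtmr2 had no count in 10 of 18 ASPC biopsies and kept a positive ratio in all 4 states without its top biopsy, of 0.85 or more. Genes at least 2-fold lower with a mean of at least 50 CPM included Snrpb2, Epb41l2, Notch2, Rnf213 and Nbeal1. Notch2, a receptor with a long transcript, was at 75.4, 50.4, 30.5 and 18.2 CPM against 203.9, 214.6, 159.6 and 63.1 CPM (log2 fold change -1.81 ± 0.43 (SE), edgeR unadjusted p = 0.00528), and all 14 IBA biopsies were below the median IBA whole cell.

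Whether the difference between techniques is itself different in macrophages and mesenchymal cells was tested with an interaction term. edgeR called 0 of 10273 genes (0%), with 160 at an unadjusted p below 0.05 and 0 in the edgeR 4 fit. DESeq2 called 8, all with a higher biopsy ratio in RAW-G9, namely Gab2, Csf1r, Gpnmb, Nucb2, Ccl2, Zfp689, Cd14 and Fat1. In mock RAW-G9 1 biopsy held 56.8% of the Gab2 counts and 1 held 60.8% of those of Nucb2, with ratios of -0.14 and -1.02 without them. All Ccl2 counts of mock RAW-G9 lay in 1 biopsy. For Zfp689 1 mock biopsy held 89.6% of the counts, and the unscaled ratio fell from 4.93 to 1.67 without it. After LPS all counts of Ccl2, Zfp689, Nucb2 and Fat1 lay in 1 biopsy for each gene. The 8 genes were chosen after their values were seen. Csf1r, Cd14 and Gpnmb had no count in IBA and ASPC biopsies and 0.390 to 121.5 CPM in the whole cells of those states.

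Cells of the same 4 states in other batches, 9 biopsy sums and 7 whole-cell sums, were compared in the same way, although there technique and batch cannot be told apart. edgeR called 27 of 11289 genes (0.239%), all lower in biopsies. DESeq2 called 301, of which 297 were lower, and the edgeR 4 fit called 0. Leaving out batch 7, 6 or 9_1 left 0 calls, leaving out the batch named scRNA left 1, and leaving out batch 9_4 gave 776. Of the 27, 13 were tested in batch 8_8, where 12 had a negative log2 fold change and 2 were lower in all 4 states.

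The class values of batch 8_8 carried over unevenly. The median log2 fold change of ribosomal protein genes outside it was -0.09 against -0.30 over all genes there, and 4 of 9 biopsy sums lay below the whole-cell sums of their state and 2 above. The share in mock biopsies ran from 3.44% to 9.90% over 3 batches. Immediate early genes had a median of -0.11 there, with 4 of 9 sums below and 3 above. Actin cytoskeleton genes had a median of 0.15, with 5 of 9 sums above and 4 below. Glycolysis had a median of 0.37, with 7 of 9 sums above and 1 below, and tubulins and vimentin had 0.30, with 7 of 9 above and 0 below. Host RNAs of small nucleolar RNAs had -0.50, with 5 of 9 below and 2 above. Mitochondrial ribosomal proteins had 3 of 9 sums below and 1 above, the respiratory chain 3 and 0, and processed pseudogenes 2 and 1. Long intergenic RNAs had 3 below and 3 above, TEC genes 5 and 1, and the ATF4 list 2 and 5. The ASPC value of mitochondrially encoded mRNAs did not recur, since the biopsies of batch 9_4 held 1.84% against 0.873% in whole cells of batch 9_1.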

How the data were processed

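Whole-transcript single-cell RNA-seq counts were analysed for 166 libraries of batch 8_8, 104 cytoplasmic biopsies and 62 whole cells. Per the submitters' processing notes and the study's methods, the authors demultiplexed 75 bp reads with bcl2fastq (2.19.1), aligned them to mm10 with STAR (2.6.1c), counted unique reads per gene with HTSeq without strand, and deposited 1 table of counts per gene and cell. That table holds 30452 features and 1012 cells, of which 766 were used and 246 columns were not used here. Reads from overlapping or antisense genes therefore cannot be told apart, and genes with near-identical copies are uncertain. Spike-in RNA was added at dilutions of 1e-08 (biopsies) and 1e-07 (whole cells) in batch 8_8 per the labels and was not used.

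Counts were summed per technique and state, because the labels name no cultures, and 20 genes that the study found in its negative controls were left out (15.62% to 24.46% of counts per sum). A class share is the percent of the remaining counts. edgeR (4.0.16, R 4.3.3) quasi-likelihood tests used TMM, filterByExpr with a minimum count of 10, state as a block, and Benjamini-Hochberg adjustment, and a gene was called where its FDR was under 0.05 and its log2 fold change exceeded 1 in size. The block pairs the 2 sums of a state, which are the same kind of cell by the labels. State log2 ratios used a prior count of 2 and fitted fold changes one of 0.125. The SE of an edgeR fold change was worked back from the test, as its size divided by the square root of the F statistic. It thus holds no information beyond the fold change and the test. All tests were two-sided. DESeq2 (1.42.0), the edgeR 4 fit, other scalings and filters, cells thinned to 50000 counts, and leaving out each state in turn were alternatives. No further cell was removed for quality in the main analysis, and 2 of 166 fell outside limits of 1000 genes and 30% mitochondrial counts. The study reports that its own quality limits removed a far larger share of biopsies than of whole cells. Group sizes in the deposited table are close to those it reports after that filtering, so that biopsies are the more selected group. The code was tested on simulated data, where 190 of 200 genes changed 4-fold were recovered at a dispersion of 0.1. Recovery at the dispersion of these sums was far lower and is given with the calls. Lengths, biotypes and coordinates came from GENCODE vM21 (30340 features matched by identifier) on GRCm38, the build of the counts. Lengths were found for 99.84% of tested genes, coding lengths for 95.15% and N-termini for 94.45%. A hydrophobic N-terminus has a mean Kyte-Doolittle value of at least 1.8 over 19 residues. Tables were made with numpy 2.4.6, pandas 2.3.3 and scipy 1.17.1.

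Members and gene lists were chosen with earlier results of these data known. Genes are named as the 3 most expressed tested members of each list, Malat1, Neat1 and the mitochondrially encoded mRNAs, and called genes, of which there were none. Any other gene is said to have been chosen after its values were seen.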

Additional observations from a re-analysis of the deposited data

Results flagged for a closer look

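In 52 groups of 4 to 10 samples examined, a sample stood apart from the others in 7. Chance alone gives about 1 in 20 where groups are independent. These groups reuse the same 4 states and the same 9 LPS biopsies over the classes, so that 7 cannot be read against that rate. The ASPC log2 ratio of mitochondrially encoded mRNAs (-2.41) lay apart from the other 3 states (-0.16 to 0.24). The remaining 6 were the highest of the 9 LPS-treated RAW-G9 biopsies for a class. Cytosolic ribosomal proteins took 6.49% of counts there (others 2.20% to 3.86%), the endoplasmic reticulum list 5.97% (others 1.75% to 3.41%), and mitochondrially encoded rRNA and tRNA 1.32% (others 0.0632% to 0.346%). For long intergenic RNAs the highest share was 7.70% (others 0.0958% to 1.40%), for antisense transcripts 0.237% (others 0 to 0.119%) and for the processed transcript biotype 0.976% (others 0.0559% to 0.257%).

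Among 26 lists, 4 had both RAW-G9 states on one side of whole cells and both mesenchymal states on the other, and these differences were not tested. Some of 26 lists would take this pattern by chance, and 4 is not read as more than that. The mean log2 ratio in RAW-G9 exceeded that in IBA and ASPC by 1.49 for mitochondrially encoded mRNAs (0.20 against -1.29), by 0.99 for lysosome and endosome (0.17 against -0.82) and by 0.68 for DNA replication (0.57 against -0.11). For histones the difference was -0.62 (-0.15 against 0.47). Without H3f3b the histone ratios of mock RAW-G9, LPS RAW-G9, IBA and ASPC were -0.40, -0.70, -0.29 and 0.42, so that IBA then lay on the side of RAW-G9.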

How the results depend on the processing

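Under the alternatives 318 class ratios moved by less than the spread over states and 16 by more. With each state left out in turn, the mean log2 ratio ranged from -0.46 to -0.43 for cytosolic ribosomal proteins, -0.28 to -0.25 for mitochondrial ribosomal proteins, -1.06 to -0.70 for snoRNA hosts, 0.32 to 0.47 for actin cytoskeleton, 0.23 to 0.34 for glycolysis and 0.79 to 1.22 for immediate early genes. For mitochondrially encoded mRNAs it ranged from -0.80 to 0.08. With medians over cells the ratio was -3.89 for nuclear long non-coding RNAs, 0.087 for tubulins and vimentin, -2.96 for long intergenic RNAs, -3.5 for TEC genes, -0.83 for antisense transcripts and -0.18 for processed pseudogenes. With the negative-control genes kept it was -0.50 for cytosolic and -0.32 for mitochondrial ribosomal proteins and -0.32 for processed pseudogenes. Leaving out the highest member, an alternative chosen after seeing the data, gave -0.50 for cytosolic ribosomal proteins, 0.17 for actin cytoskeleton, -0.24 for histones and -0.44 for the processed transcript biotype, and for mitochondrially encoded rRNA and tRNA it gave no value in ASPC. Leaving out the 16 mock biopsies was also chosen after seeing the data. So was leaving out, in each state, the biopsy with the most counts of a class, which gave -0.51 for cytosolic ribosomal proteins, 0.076 for tubulins and vimentin and -0.13 for the processed transcript biotype. In batch 8_8 the count of called genes was 5 with DESeq2, 1 with the edgeR 4 fit, 1 without a filter and 0 without the block by state, where the median log2 fold change over all genes was -0.09. The interaction count was 8 with DESeq2. Outside batch 8_8 it was 301 with DESeq2 and 0 with the edgeR 4 fit, and with each batch left out it ranged from 0 to 776. Ctsz turned from -0.10 to 0.0079 with DESeq2 size factors, 0.0078 with DESeq2 and 0.11 with cells thinned, and with each state left out it ranged from -0.087 to 0.0015, the latter without IBA. The causes were not tested. The LPS biopsies were the shallowest sum, and genes absent there may be below detection.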
